A study of Homo sapiens with 6 samples.

Results

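The genes described here are 10 genes of mucus and goblet cell secretion, MUC1, MUC2, MUC4, MUC5AC, MUC5B, MUC12, MUC13, MUC17, MUC20 and TFF3. They were chosen by name from the 58735 genes of the count table, with earlier results of these data known. LoVo cells, an established human line from a metastasis of a colon adenocarcinoma, received by transfection either a negative control siRNA, called si-NC, or one that targets the splicing factor SRSF11, called si-SRSF11, with 3 samples each. Cell line and transfection reagent were shared by both groups, and the control cells carry an siRNA too. Which of the study's SRSF11 siRNAs was sequenced, and how long after transfection, is not given in the sources used here. The libraries were made from poly(A) RNA and read from both ends over 150 bp, and the deposited values are raw counts per gene. The cells are 1 cancer line and not a normal mucosa, and RNA was taken from the whole culture, so a smaller number of expressing cells and less RNA per cell cannot be told apart.

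Mucins are large glycoproteins whose central domains are rich in serine, threonine and proline and are covered with O-linked sugars. The gel-forming mucins are secreted and link into networks through cysteine-rich ends, and in the colon MUC2 from goblet cells forms the mucus layer, while MUC5AC is typical of the gastric and airway surface and MUC5B of airway and salivary glands. The transmembrane mucins stay on the apical membrane, where they form the glycocalyx. TFF3 is a small trefoil peptide that goblet cells release together with mucus.

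Library totals ranged from 14369525 to 16685719 counts. The targeted gene SRSF11 had 1271, 1281 and 1363 counts in si-NC and 789, 789 and 807 in si-SRSF11, a log2 fold change of -0.81 ± 0.05 (SE), so the labels and the targeted gene went the same way. Levels are given as CPM, counts relative to library size after TMM scaling in edgeR. The test covered 15801 genes, those reaching 10 counts in 3 or more libraries. A gene was called where the adjusted p of edgeR's quasi-likelihood test was under 0.05, which held for 24.6% of tested genes, 13.2% with a rise and 11.4% with a fall after si-SRSF11. Over all tested genes the median log2 fold change was 0.0015.

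The epithelial identity of the cells was read from KRT8, EPCAM, KRT18, KRT19 and CDH1, 5 epithelial genes of which none was called and whose summed CPM was 5367 to 5697 in si-NC and 5392 to 5790 in si-SRSF11. Of 7 non-epithelial markers, the leukocyte gene PTPRC and the fibroblast gene DCN were at 0 counts in all 6 libraries, while the collagen gene COL1A1, the most counted, had 186 to 198 counts in si-NC and 179 to 206 in si-SRSF11 and was not called. Of 10 goblet cell markers, 7 were tested and 2, REG4 and SPINK4, were called higher. That is 28.6% called, beside 24.6% of all tested genes, and 11 of 15 alternative fits did not call SPINK4. The summed CPM was 168 to 182 in si-NC and 201 to 212 in si-SRSF11. REG4 alone went from a mean of 36.5 to 63.3 CPM, while TFF3 and FCGBP had log2 fold changes of -0.15 and -0.31, not called. The goblet lineage factor ATOH1 and the goblet secreted protein CLCA1 were at 0 counts in all 6 libraries, and MUC2 had 26 to 44 counts. AGR2, the most counted of the list, had a mean of 102 CPM in si-NC, REG4 had 36.5, SPINK4 13.3, TFF3 9.33 and FCGBP 9 CPM.

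The coding sequence of a mucin repeats itself, and this bears on how reads can be assigned. Among the longest annotated transcripts, that of MUC1 holds 19 exact copies of a unit of 60 nt, that of MUC2 9 of 69 nt and that of MUC20 10 of 57 nt. The MUC2 transcript used is annotated as a processed transcript, not as a coding one. The units of MUC1 and MUC2 are shown as examples of the stretches that give a mucin its sugar-bearing domain.

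MUC1 repeat unit: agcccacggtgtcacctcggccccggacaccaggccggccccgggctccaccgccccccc
MUC2 repeat unit: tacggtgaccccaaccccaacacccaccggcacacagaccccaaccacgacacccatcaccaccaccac

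A read that lies wholly inside such an array matches several places in 1 gene. In windows of 100 nt, 49.7% of the longest MUC12 transcript recurred within itself, as did 32.5% of MUC1, 19.1% of MUC5B, 16.4% of MUC20, 13.9% of MUC2, 13.1% of MUC4 and 10.5% of MUC5AC. Recurrence was 0.368% in MUC17, and in MUC13 and TFF3 it was 0%. How the counting program treated such reads is not given in the sources used here, and its effect on the levels of the repeat-rich members was not tested.

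Promoter sequences from RefSeq (GRCh38.p14) were matched for 6 of the 10 members, MUC1, MUC2, MUC4, MUC12, MUC13 and MUC17. Shown are the 250 bases before the annotated start of MUC13, the only matched member that was called, and of MUC2 and MUC12, the matched members that hold the letters TTTATNG, a core motif of the intestinal CDX factors. Letters were searched on both strands, and capitals mark that match.

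MUC13, chr3:124934752-124935001, minus strand: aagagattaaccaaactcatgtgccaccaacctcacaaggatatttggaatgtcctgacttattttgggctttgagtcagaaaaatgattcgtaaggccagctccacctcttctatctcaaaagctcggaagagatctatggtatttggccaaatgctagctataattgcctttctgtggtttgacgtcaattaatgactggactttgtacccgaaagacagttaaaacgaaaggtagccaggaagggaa
MUC2, chr11:1074624-1074873, plus strand: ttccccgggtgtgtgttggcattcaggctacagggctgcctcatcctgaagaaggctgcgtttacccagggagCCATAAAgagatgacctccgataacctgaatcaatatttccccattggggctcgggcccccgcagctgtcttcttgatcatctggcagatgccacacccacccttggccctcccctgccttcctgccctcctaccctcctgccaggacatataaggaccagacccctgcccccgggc
MUC12, chr7:100969315-100969564, plus strand: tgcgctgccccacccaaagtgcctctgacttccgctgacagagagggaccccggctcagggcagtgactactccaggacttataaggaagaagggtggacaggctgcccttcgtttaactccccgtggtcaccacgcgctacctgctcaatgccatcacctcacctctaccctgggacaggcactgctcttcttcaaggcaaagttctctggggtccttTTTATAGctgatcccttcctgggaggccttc

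The CDX letters began 177 bases before the start of MUC2 and 31 bases before that of MUC12, where they overlap the letters of a TATA box, TATAAA. Among 35116 promoters of the same length, 8.93% held the CDX letters and 10.7% the TATA letters. The MUC13 window held neither of these. It also lacked the letters of a GC box (GGGCGG, in 42.6% of promoters), a FOXA motif (TGTTTAC, in 2.98%) and an E box (CACGTG, in 6.34%). The RefSeq start of MUC13 lies 19068 bases inside the gene as the count table draws it, so another annotated start exists upstream. A match of letters is a description of the window, not a binding site.

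MUC5AC, MUC5B and MUC13 rose after transfection of si-SRSF11, and these 3 are the members with the most counts. Of the 10 members, 9 were tested and 1, MUC17, was not. Of the 9, 3 were called higher, beside 13.2% of all tested genes, and 0 were called lower, beside 11.4%. Without a call, 1 log2 fold change was above 0 and 5 were below. The median log2 fold change over the 9 was -0.15, and the intervals of the 6 that were not called all span 0.

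**Figure D1:**
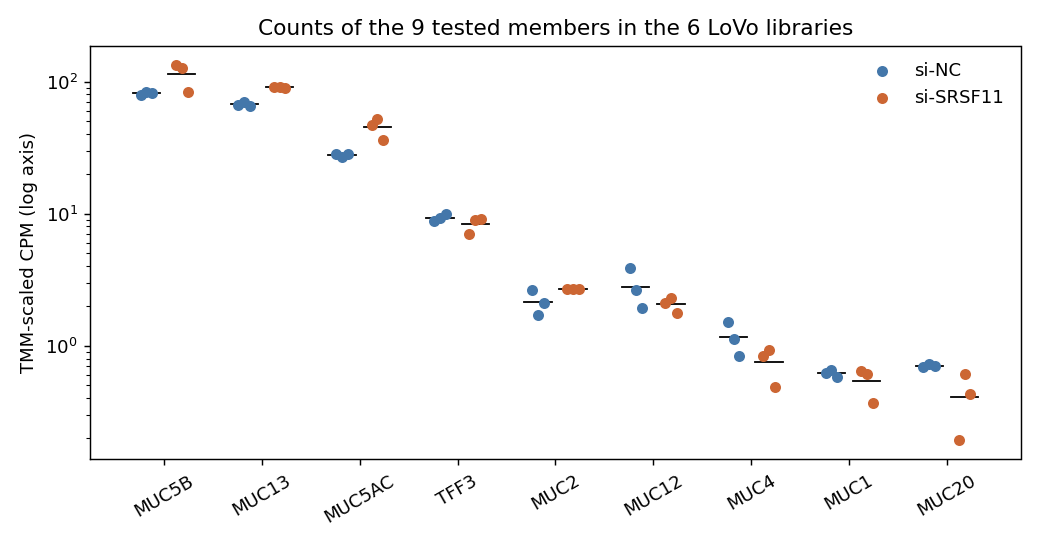
CPM (log axis) of the 9 tested members in each of the 6 libraries, 3 points per condition in replicate order with the mean as a bar. The si-SRSF11 points of MUC13 sit together at 88.6 to 91.6, while replicate 3 of MUC5B, at 83.9, is close to the si-NC points.

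MUC5AC (chr11:1157953-1201138, plus strand, 49 exons) was called higher. It had 28.3, 26.8 and 28.4 CPM in si-NC and 46.8, 52.1 and 36.1 CPM in si-SRSF11. All si-SRSF11 libraries were above all si-NC libraries, and replicate 3 was the lowest of them. The means were 27.8 ± 0.914 and 45 ± 8.18 CPM (SD, n = 3), a log2 fold change of 0.69 ± 0.10 (SE, 95% interval 0.49 to 0.89) with an adjusted p of 1.5e-05 in edgeR's test.

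MUC5B (chr11:1223066-1262172, plus strand, 49 exons in the longest transcript) was the member with the most counts. It had 1152, 1259 and 1278 counts in si-NC, or 79.4, 82.8 and 82 CPM. In si-SRSF11 it had 2103, 2044 and 1368 counts, or 134, 126 and 83.9 CPM. Replicates 1 and 2 stood well above si-NC, and replicate 3 lay only just above the highest si-NC library. The log2 fold change was 0.49 ± 0.10 (SE, 95% interval 0.28 to 0.71) with an adjusted p of 0.0011 in edgeR's test. It was 0.67 without si-SRSF11 replicate 3, and the call was lost in DESeq2, where the log2 fold change was 0.49 with an adjusted p of 0.077.

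The shortfall of si-SRSF11 replicate 3 was shared by both MUC5 genes and not by MUC13. Replicate 3 lay -0.63 log2 units from the mean of replicates 1 and 2 for MUC5B, -0.46 for MUC5AC and -0.04 for MUC13. Gene length moved with this difference in the same library. Among 315 genes of at least 15 kb of exon and a mean of at least 10 CPM, the median of the same difference was -0.14, against 0.13 for 801 genes under 2 kb. In si-NC replicate 3 the corresponding medians were -0.03 and 0.03. MUC5B has 18598 and MUC5AC 17448 bases of exon, and MUC13 has 3499. MUC2, with 12667 bases of exon but few counts, was at 2.69, 2.71 and 2.7 CPM in si-SRSF11 replicates 1, 2 and 3. The part of length, or of RNA quality, in the lower MUC5 values of replicate 3 was not tested. Between the conditions the median log2 fold change was 0.05 in the 315 long genes and 0.00 in the 801 short ones.

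Between the neighbours themselves, MUC5B had 2.81, 3.09 and 2.88 counts for each MUC5AC count in si-NC and 2.87, 2.41 and 2.33 in si-SRSF11. The ranges overlap, so the ratio of the pair did not separate the groups.

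MUC2 (chr11:1074875-1110511, plus strand), the gel former of the normal colon, was scarce. It had 38, 26 and 33 counts in si-NC and 42, 44 and 44 in si-SRSF11. Its si-SRSF11 libraries, at 2.69 to 2.71 CPM, were above the si-NC range of 1.71 to 2.62 CPM. The gap to the highest si-NC library was small, and the log2 fold change of 0.33 ± 0.24 (SE, 95% interval -0.17 to 0.82) was not called, with an adjusted p of 0.34 in edgeR's test. At this depth a change of MUC2 as large as that of MUC5AC lies within the interval. The 3 gel formers together summed to 110, 111 and 113 CPM in si-NC and 184, 181 and 123 CPM in si-SRSF11.

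**Figure D2:**
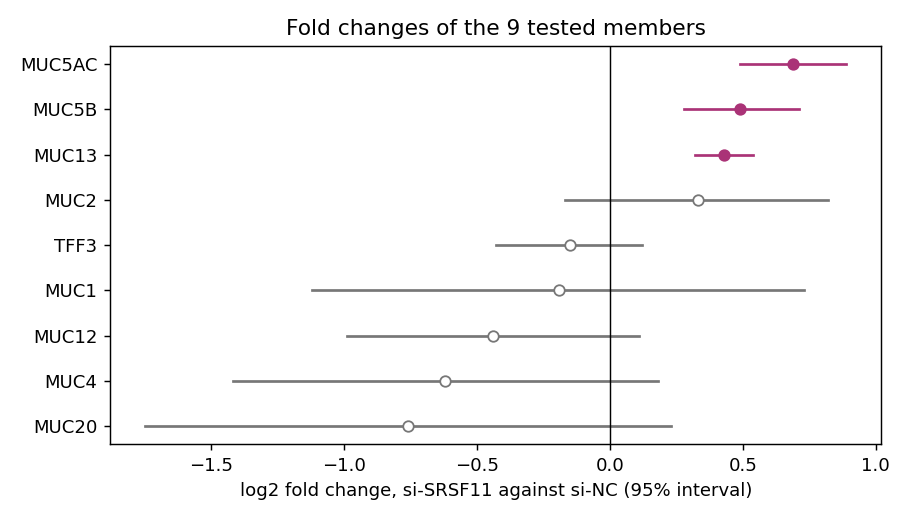
Log2 fold change of si-SRSF11 against si-NC with its 95% interval for the 9 tested members, filled points marking an adjusted p under 0.05. The intervals of MUC5AC, MUC5B and MUC13 lie above 0, and those of the other 6 cross it.

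MUC13 (chr3:124905442-124953819, minus strand, 12 exons in its longest transcript), a transmembrane mucin of the intestinal epithelium with a short extracellular domain, showed the most even response. It had 963, 1057 and 1014 counts in si-NC and 1432, 1480 and 1444 in si-SRSF11. The scaled values were 67 ± 2.29 and 90.4 ± 1.61 CPM (SD, n = 3), and the groups were far apart relative to this spread. The log2 fold change was 0.43 ± 0.05 (SE, 95% interval 0.32 to 0.54), with an adjusted p of 2.6e-06 in edgeR's test.

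The other transmembrane mucins were near the lower limit of the test, and none was called. MUC12 (chr7:100969623-101018949, plus strand) gave counts of 56, 40 and 30 in si-NC and 33, 37 and 29 in si-SRSF11, with a log2 fold change of -0.44 ± 0.26 (SE, 95% interval -0.99 to 0.11). MUC4 (chr3:195746765-195812277, minus strand), a partner of the receptor ERBB2, had 22, 17 and 13 counts against 13, 15 and 8, with a log2 fold change of -0.62 ± 0.38 (SE, 95% interval -1.42 to 0.18). MUC1 (chr1:155185824-155192916, minus strand), the broadly expressed epithelial mucin, had 9, 10 and 9 counts against 10, 10 and 6, with a log2 fold change of -0.19 ± 0.44 (SE, 95% interval -1.12 to 0.73). In each of the 3 the libraries of both groups overlapped, and the adjusted p in edgeR's test was 0.24, 0.26 and 0.79 in that order. Each of these intervals holds 0 as well as a fall as large as the rise of MUC13, so a difference was not detectable at this depth. Summed over MUC1, MUC4, MUC12 and MUC17, the level was 6.07, 4.41 and 3.34 CPM in si-NC and 3.58, 3.81 and 2.64 in si-SRSF11.

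MUC17 (chr7:101020072-101058745, plus strand), a mucin of the small intestinal brush border, had 1 count in si-NC replicate 1 and 0 in the other 5 libraries. A count of 0 allows up to 0.184 to 0.207 CPM, depending on the library, for counting error only. MUC17 therefore failed the filter and gives no comparison.

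MUC20 (chr3:195720882-195741123, plus strand), another membrane mucin, had in si-NC 10, 11 and 11 counts and 3, 10 and 7 in si-SRSF11. All si-SRSF11 libraries were below si-NC by CPM, and the log2 fold change of -0.76 ± 0.48 (SE, 95% interval -1.75 to 0.23) was not called, with an adjusted p of 0.26 in edgeR's test. The count of this gene is uncertain for another reason. Of its exon bases, 42.8% are also exon of MUC20-OT1, a long non-coding RNA on the same strand, and 58.1% of its 100 nt windows recur in the transcripts of other genes. MUC20-OT1 had 2122 counts over the 6 libraries, far more than MUC20, and was called lower, with a log2 fold change of -0.29 ± 0.09 (SE) and an adjusted p of 0.02 in edgeR's test, a call that was lost without si-NC replicate 2 or 3 and without si-SRSF11 replicate 2 or 3, with adjusted p of 0.062 to 0.09. How reads in the shared bases were divided was not tested. Exon overlap was smaller elsewhere, at 2.33% of MUC5B with the antisense RNA MUC5B-AS1, which had 0 counts, and at 1.13% of MUC12, 1.02% of MUC1 and 1.85% of MUC17.

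TFF3 (chr21:42311667-42315651, minus strand), the trefoil peptide of goblet cells, had 127, 140 and 156 counts in si-NC and 110, 146 and 149 in si-SRSF11. The groups overlapped at 8.76 to 10 and 7.03 to 9.14 CPM. The log2 fold change of -0.15 ± 0.13 (SE, 95% interval -0.43 to 0.12), with an adjusted p of 0.44 in edgeR's test, lies below the whole interval of its paralog TFF1, described below.

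Sums and single CPM values given elsewhere are not divided by length. For the order of the members, levels were compared per length, as CPM per kb of exon. By that scale MUC13 was the most abundant member in si-NC, at 19.2 CPM per kb, followed by TFF3 at 7.99, MUC5B at 4.38 and MUC5AC at 1.6. The ranges of these 4 over the si-NC libraries did not overlap. By CPM alone the order began with MUC5B, because its exons span 18598 bases. MUC2, MUC20, MUC12 and MUC1 followed at 0.17, 0.166, 0.164 and 0.131 CPM per kb, and neighbours in this order overlapped. MUC4 was lower, at 0.0542, and MUC17 lowest, at 0.00158. Among all tested genes the si-NC level of MUC13 per kb was at the 84.1 percentile, TFF3 at 64.8, MUC5B at 50 and MUC5AC at 28.2, and MUC2 at 2.8. In si-SRSF11 the first 5 places kept this order, at 25.8 for MUC13, 7.18 for TFF3, 6.17 for MUC5B, 2.58 for MUC5AC and 0.213 for MUC2, and the ranges of TFF3 and MUC5B overlapped there.

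**Figure D3:**
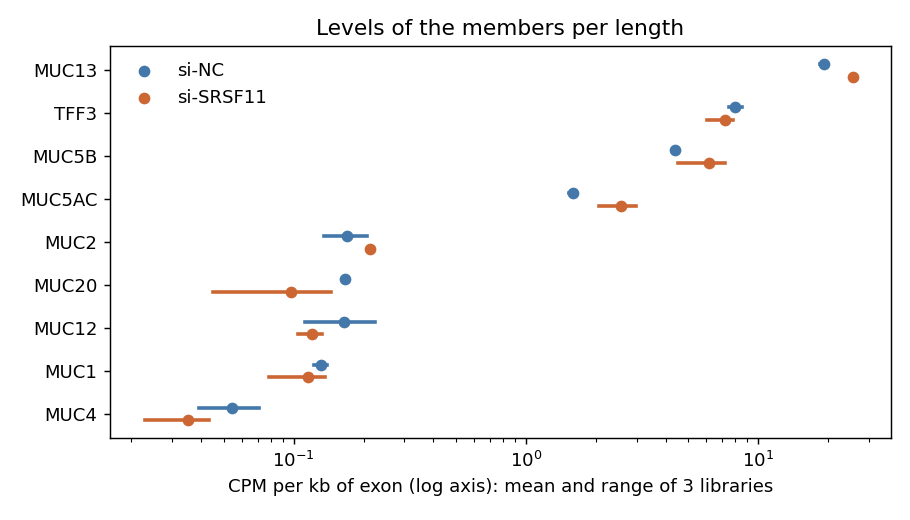
CPM per kb of exon (log axis) of the 9 tested members, with the mean as a point and the range of the 3 libraries of a condition as a line. MUC13, TFF3, MUC5B and MUC5AC lie between 1.6 and 25.8, and the other 5 means lie at 0.213 or below.

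Several members are neighbours in the genome, and neighbours were compared with the nearest tested coding gene on each side, chosen by position and named outside the rule for named genes. On chromosome 11, MUC2, MUC5AC and MUC5B follow each other with gaps of 47441 and 21927 bp. MUC6, the fourth gene of that cluster, had 0 to 9 counts per library and was not tested. Of the flanking genes, AP2A2 had a log2 fold change of -0.09 that was not called (adjusted p = 0.15 in edgeR's test) and TOLLIP had one of -0.20 that was called lower (adjusted p = 0.011, and 0.056 and 0.074 without si-NC replicates 1 and 3).

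On chromosome 7, MUC3A, MUC12 and MUC17 are adjacent transmembrane mucins, and MUC3A had 124 to 146 counts in si-NC and 103 to 137 in si-SRSF11 with a log2 fold change of -0.31 ± 0.14 (SE) that was not called (adjusted p = 0.1 in edgeR's test). MUC20 and MUC4 lie 5641 bp apart on chromosome 3, both with log2 fold changes below 0 and no call. The gene beyond MUC4, TNK2, was called lower at -0.16 (adjusted p = 0.018 in edgeR's test, and 0.12 without si-NC replicate 3), and APOD, on the side of MUC20, had -0.26 and no call. TRIM56, beyond MUC17, was likewise called lower at -0.16 (adjusted p = 0.025, and 0.078 and 0.12 without si-NC replicates 1 and 3), and ACHE, on the side of MUC3A, had 0.05 and no call. MUC13, elsewhere on chromosome 3, has ITGB5 on one side, which was called higher with a log2 fold change of 0.26. HEG1, on the other side of MUC13, had -0.07 and no call. The neighbours of MUC1, KRTCAP2 and THBS3, were called lower with log2 fold changes of -0.49 and -0.56. The call of KRTCAP2 was lost when any library other than si-SRSF11 replicate 3 was left out, with adjusted p of 0.057 to 0.17 in edgeR's test. It was also lost in DESeq2, with an adjusted p of 0.075.

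On chromosome 21 the 3 trefoil genes lie side by side and did not move together. TFF1, the trefoil peptide of the gastric surface, had 245, 270 and 304 counts in si-NC and 397, 470 and 474 in si-SRSF11. It was called higher, with a log2 fold change of 0.62 ± 0.09 (SE, 95% interval 0.44 to 0.81) and an adjusted p of 2.3e-05 in edgeR's test. TFF2 had a log2 fold change of -0.07 (95% interval -0.42 to 0.28) and was not called. The intervals of TFF1 and of each of the other two do not overlap, and the difference between the genes was not tested in a model of its own.

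**Figure D4:**
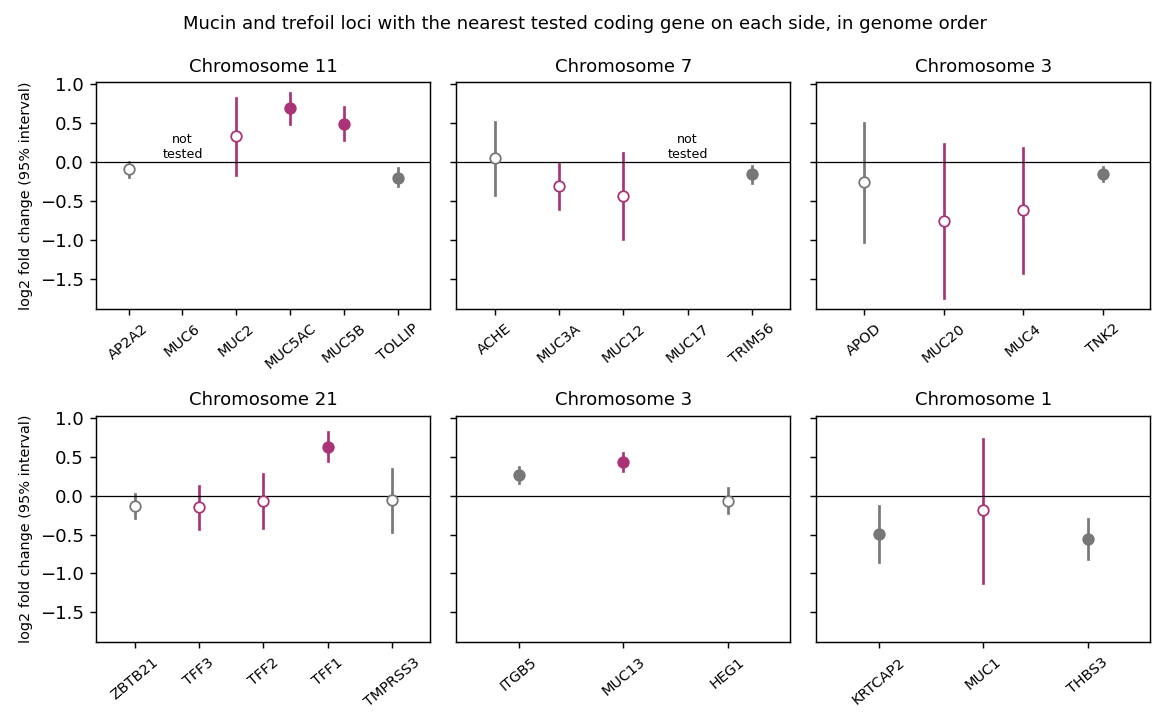
Log2 fold change with 95% interval at 6 loci, genes in genome order, mucin and trefoil genes in purple and the nearest tested coding gene on each side in grey, filled where called. MUC5AC at 0.69 and MUC5B at 0.49 stand between AP2A2 at -0.09 and TOLLIP at -0.20, and TFF1 at 0.62 stands apart from TFF2 and TFF3.

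Other mucin genes gave few values. Of 14 listed, 13 were found by symbol and 4 were tested, of which 1 was called higher and 0 lower, with a median log2 fold change of -0.06. This is 25% called, beside 24.6% of all tested genes. The called gene was CD164, a sialomucin with a log2 fold change of 0.19 ± 0.05 (SE). MUCL3 had 12, 16 and 13 counts against 7, 13 and 5, with a log2 fold change of -0.79 ± 0.43 (SE) and no call. MUC7, MUC15, MUC22, MUCL1 and EMCN were at 0 counts in all 6 libraries.

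Secreted goblet cell proteins that travel with mucus were divided. Of 15 listed, 8 were tested, 4 were called higher and 0 lower, with a median log2 fold change of 0.18. The share called was 50%, beside 24.6% of all tested genes, in a list chosen with earlier results of these data known. REG4, a secreted lectin, had 511, 545 and 599 counts in si-NC and 1000, 995 and 1055 in si-SRSF11, a log2 fold change of 0.79 ± 0.06 (SE) with an adjusted p of 4.3e-09 in edgeR's test. TFF1 and the tissue kallikrein KLK1 (0.37 ± 0.08) were the next by adjusted p. SPINK4, a protease inhibitor of goblet cells, was called at 0.30 ± 0.11 with an adjusted p of 0.046 in edgeR's test, and 11 of 15 alternatives did not call it, with adjusted p of 0.051 to 0.23. AGR2, the disulfide isomerase needed for mucin folding, had 1449 to 1700 counts in si-NC and 1668 to 1766 in si-SRSF11, with a log2 fold change of 0.05 (95% interval -0.05 to 0.16) and no call. FCGBP, a mucus scaffold protein, had 132 to 140 counts against 110 to 122, and its log2 fold change of -0.31 was not called (adjusted p = 0.08 in edgeR's test). RETNLB, AGR3 and WFDC2 were, like CLCA1, at 0 counts in all libraries.

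A list of intestinal and secretory lineage regulators held 25 genes, of which 23 were tested. Of these, 6 were called higher and 2 lower, with a median log2 fold change of 0.06. Called were 34.8% of those tested, beside 24.6% of all tested genes. The list mixes goblet factors with general intestinal factors, such as CDX2, CDX1 and HNF4A, and with Notch pathway genes. Its share is therefore not that of goblet factors alone. The intestinal homeobox factor CDX2 had 977, 955 and 1156 counts in si-NC and 1496, 1254 and 1597 in si-SRSF11, a log2 fold change of 0.40 ± 0.07 (SE). Its relative CDX1 rose by 0.31 ± 0.06 on the log2 scale, and the nuclear receptor HNF4A by 0.27 ± 0.05. CREB3L1, a transcription factor of the endoplasmic reticulum, had 4, 12 and 14 counts against 42, 20 and 40, a log2 fold change of 1.67 ± 0.39 (SE) with an adjusted p of 0.003 in edgeR's test. Named after their values were seen, ERN2, the stress sensor of mucus-secreting epithelia, had 4, 5 and 4 counts against 13, 18 and 19, a log2 fold change of 1.82 ± 0.45, and HNF4G had 0.31 ± 0.09, both called higher. ERN2 reached the filter of 10 counts only in si-SRSF11, so its call is not independent of the filter. FOXA3 (-0.53 ± 0.16) and KLF4 (-0.17 ± 0.06), also named after their values were seen, were the 2 called lower, while 1 regulator was called lower in DESeq2 and in each fit that left out a si-NC library or si-SRSF11 replicate 2.

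SPDEF, the factor that drives goblet cell maturation, had 12, 18 and 10 counts in si-NC and 26, 16 and 44 in si-SRSF11. The groups overlapped, and the log2 fold change of 1.01 ± 0.38 (SE) was not called, with an adjusted p of 0.055 in edgeR's test. It was 0.57 without si-SRSF11 replicate 3 and 1.30 without si-SRSF11 replicate 2, which called it with an adjusted p of 0.017 in edgeR's test. With no filter on low counts SPDEF was also called, at 1.00 with an adjusted p of 0.03 in edgeR's test.

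Enzymes that build mucin-type O-glycans were called in 1 direction in the main test, at a share near that of all tested genes. Of 36 listed genes 25 were tested, 7 were called higher and 0 lower, with a median log2 fold change of 0.18. That is 28% called, beside 24.6% of all tested genes, 13.2% with a rise and 11.4% with a fall. GALNT2 and GALNT10, which attach the first sugar, had log2 fold changes of 0.34 ± 0.05 and 0.31 ± 0.05 (SE). ST3GAL1, which adds sialic acid to the core structure, had 278 to 295 counts in si-NC and 409 to 469 in si-SRSF11, a log2 fold change of 0.51 ± 0.09. B3GNT3, which extends it, had a log2 fold change of 0.30 ± 0.06. Without si-SRSF11 replicate 2, and under 5 other settings, 1 gene of the list was called lower. In the main test the listed gene nearest to such a call was B4GALNT3, named after its values were seen. It had a log2 fold change of -0.31 ± 0.11 and an adjusted p of 0.05 in edgeR's test, and was not called. GALNT13, GALNT14 and the core 3 enzyme B3GNT6 were at 0 counts in all libraries.

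The list of granule secretion and ion transport held 21 genes. Of 16 tested, 11 were not called, 3 were called higher and 2 lower, with a median log2 fold change of -0.01. That is 31.2% called, beside 24.6% of all tested genes. The chloride cotransporter SLC12A2 (0.44 ± 0.05, SE) and the granule GTPase RAB27B (0.39 ± 0.08) rose, while the priming factor UNC13D (-0.27 ± 0.05) fell. The third that rose was SYTL2, at 0.60 ± 0.18, named after its values were seen. The chloride channel CFTR and the exchanger SLC26A3 were at 0 counts in all libraries.

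Partners of the transmembrane mucins and the enzymes that shed them were 14 listed genes, of which 13 were tested, 5 were called higher and 4 lower, with a median log2 fold change of 0.06. The share called was 69.2%, beside 24.6% of all tested genes. The list was chosen with earlier results of these data known, and its share was not compared with that of genes at similar levels. LGALS3, the lectin galectin-3 that binds mucin sugars, had 5767 to 6269 counts in si-NC and 4531 to 5403 in si-SRSF11, a log2 fold change of -0.39 ± 0.05 (SE). The receptor EGFR was called lower at -0.29 ± 0.05, and its relative ERBB2, the partner of MUC4, was called higher at 0.24 ± 0.05. MMP14, a membrane protease that can release MUC1, was called higher at 0.26 ± 0.05. The others, named after their values were seen, were ERBB3, SLC9A3R1 and the sheddase ADAM10 (0.17 ± 0.06), called higher, and CDHR5 and the sheddase ADAM17 (-0.19 ± 0.06), called lower. Without si-NC replicate 2, 3 genes of the list were called higher.

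**Figure D5:**
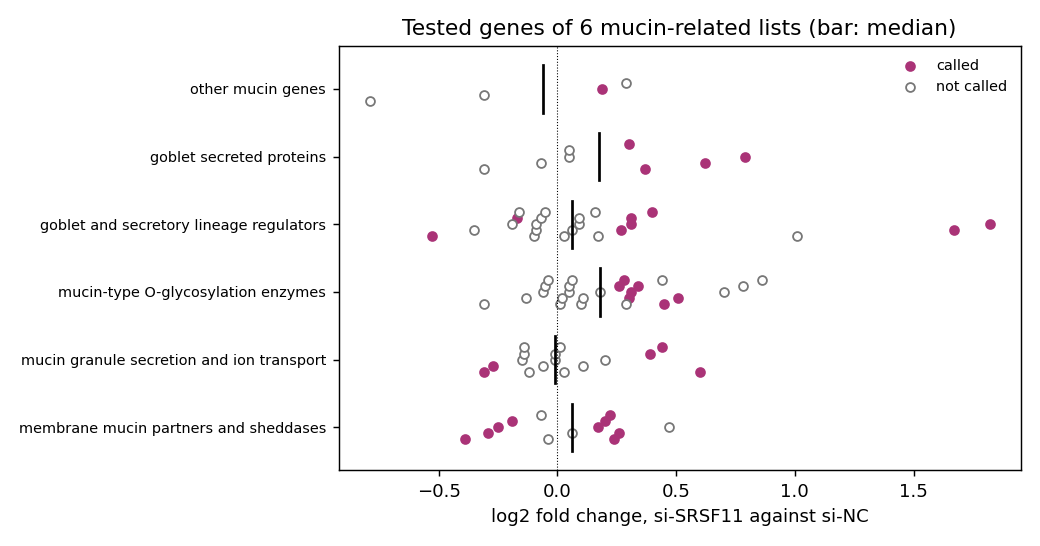
Log2 fold change of each tested gene of 6 lists around the members, filled where the adjusted p was under 0.05, with the median of each list as a bar. Secreted goblet proteins and O-glycosylation enzymes have medians of 0.18, and no gene of either list was called lower, while the partner list holds calls from -0.39 to 0.26. Called were 50% of the tested secreted proteins, 28% of the enzymes and 69.2% of the partners, beside 24.6% of all tested genes. The lists were chosen with earlier results of these data known.

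MUC5AC and TFF1 are also markers of the gastric surface. Of 11 gastric epithelium markers, 4 were tested and 3 were called higher, MUC5AC, TFF1 and the protease CTSE, beside 13.2% of all tested genes. The fourth, TFF2, had a log2 fold change of -0.07 and was not called. The other 7 did not pass the filter, among them MUC6, with a mean of 0.336 CPM in si-NC and 0.311 in si-SRSF11. The summed CPM of the 11 was 251 to 254 in si-NC and 383 to 405 in si-SRSF11. CTSE held most of that sum, with 2911, 3075 and 3113 counts in si-NC and 5007, 5157 and 5094 in si-SRSF11, a log2 fold change of 0.66 ± 0.04 (SE) with an adjusted p of 8.5e-10 in edgeR's test. The defining gastric genes GKN1, GKN2 and ANXA10 were at 0 counts in all 6 libraries. The gastric list shares MUC5AC with the members, and TFF1 and TFF2 with the secreted goblet proteins. Its sum is therefore not separate from the results for those genes.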

How the data were processed

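Gene expression in LoVo cells was measured by RNA-seq of polyadenylated RNA in 3 si-NC and 3 si-SRSF11 libraries. The authors deposited raw counts per gene, with no normalization or filter, on hg38. The aligner, the counting program and its use of strand are not given in the sources used here. Gene models were those of GENCODE 29, which gave the same start, end and exon length for 58724 of 58735 genes.

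Genes that reached 10 counts in 3 or more libraries were scaled by TMM and tested with glmQLFit and glmQLFTest of edgeR (version 4.0.16, R version 4.3.3) on condition alone, adjusted by the Benjamini-Hochberg method over 15801 genes. SEs come from the quasi-likelihood F statistic. The fit was tested on simulated data. An exact two-sided permutation test of 3 against 3 cannot go below p = 0.10. Alternatives were DESeq2 (version 1.42.0), other scalings and filters, protein-coding genes only, a replicate block, and each library left out.

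The 10 members and all gene lists were chosen with earlier results of these data known. Named genes are SRSF11, the members, tested genes that overlap them or begin with MUC, SPDEF, ATOH1, AGR2, FCGBP, CLCA1, TFF1, TFF2, up to 4 genes per list by adjusted p, and in marker lists the most counted gene and those at 0. Other names are marked, and a gene of the secretion list is not reported here. The study calls the samples independent, but the labels name no separate cultures, so p-values measure the spread between samples, which may be technical.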

Additional observations from a re-analysis of the deposited data

How the results depend on the processing

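Over 15 alternatives MUC5AC and MUC13 stayed called and higher, with log2 fold changes of 0.57 to 0.82 and 0.40 to 0.46. MUC5B stayed higher at 0.36 to 0.67 and was called in 14 of 15. The exception was DESeq2, with 0.49 and an adjusted p of 0.077, which left 2 members called where each other alternative called 3. The cause was not tested. MUC1 ranged from -0.33 to 0.01 with 1 library left out, and was above 0 without si-SRSF11 replicate 3. Of the flanking genes, ACHE ranged from -0.07 to 0.13 and was below 0 at -0.02 and -0.07 without si-NC replicate 3 and without si-SRSF11 replicate 2, and APOD ranged from -0.69 to 0.06. Leaving out single libraries gave 0.19 to 0.49 for MUC2, -0.65 to -0.15 for MUC12, -0.81 to -0.38 for MUC4, -1.16 to -0.44 for MUC20 and -0.22 to -0.05 for TFF3, none called. MUC1, MUC4 and MUC20 had no adjusted p in DESeq2 and failed a filter of 20 counts in each library. Genes called ranged from 2733 to 4036, and scaling by library size alone gave 1585 higher and 2289 lower in place of 2081 and 1805.

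Same-numbered libraries correlated at 0.0151, 0.0362 and 0.0403 in their deviations from the group means, each best with its own number. These correlations are very small and do not settle whether the samples were paired. The fit with the replicate number as a block called 4036 genes and the same count of members, 3, with log2 fold changes of 0.47 for MUC5B, 0.68 for MUC5AC and 0.43 for MUC13.

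Depth limits the 5 tested members with a mean under 3 CPM, MUC1, MUC2, MUC4, MUC12 and MUC20, whose intervals span 0, and MUC17, which was at or near 0.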

Other observations

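Markers of other intestinal cell types were measured beside the goblet genes. Their calls stand beside 24.6% of all tested genes called, 13.2% with a rise and 11.4% with a fall. These marker lists too were chosen with earlier results of these data known. Of 7 intestinal stem cell markers, 4 were tested and all 4 of these were called higher, with a summed CPM of 144 to 151 in si-NC and 217 to 224 in si-SRSF11. The most counted was the ephrin receptor EPHB2, with 1525, 1529 and 1619 counts in si-NC and 2302, 2417 and 2362 in si-SRSF11, a log2 fold change of 0.51 ± 0.05 (SE) and an adjusted p of 5.2e-08 in edgeR's test. Named after their values were seen, the receptor LGR5 had 73, 85 and 96 counts against 201, 186 and 193, a log2 fold change of 1.10 ± 0.13, and RNF43 and ASCL2 had 0.62 ± 0.07 and 1.03 ± 0.25. OLFM4 was at 0 counts in all libraries.

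Of 5 Paneth cell markers 1 was tested, the phospholipase PLA2G2A, with 184, 229 and 200 counts against 389, 426 and 400 and a log2 fold change of 0.90 ± 0.09 (SE), while DEFA5, DEFA6 and REG3A were at 0 counts. Of 13 enterocyte markers 5 were tested, with 1 called higher and 1 lower, named after their values were seen as ALPI (0.47 ± 0.06) and CA2 (-0.52 ± 0.08), while VIL1, the most counted, had 0.11 ± 0.05 and no call. Of 5 tuft cell markers, all tested, 1 was called higher, AVIL (0.56 ± 0.18), named after its value was seen, while the ion channel TRPM5, the highest of the list in si-NC by mean CPM, had -0.47 ± 0.21 and DCLK1 had -0.42 ± 0.32, neither called. Without si-SRSF11 replicate 3, TRPM5 was called lower, with -0.68 and an adjusted p of 0.039 in edgeR's test. None of 9 enteroendocrine markers passed the filter. Of 7 non-epithelial markers 2 were tested and neither was called, with a summed CPM of 12.9 to 14.1 in si-NC and 11.5 to 14.5 in si-SRSF11.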
